A study of Mus musculus with 12 samples.

Results

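Tendon stem and progenitor cells are recognised by proteins on their surface, and 10 genes behind such markers were followed here in single tendon cells: Cd34, Ly6a, Thy1, Pdgfra, Pdgfrb, Nes, Eng, Nt5e, Mcam and Cd44. They were picked by symbol from the 55418 gene symbols of the count table, and each symbol was found on exactly 1 row. The cells were 12 GFP-positive cells from uninjured, untreated Achilles tendons of mice on a C57BL/6 background. Of these, 6 were Tnmd-/- ScxGFP+ cells, from constitutive knockouts of the tendon gene tenomodulin (Tnmd), and 6 were Tnmd WT ScxGFP+ cells, with both groups carrying the ScxGFP transgene. ScxGFP is a green fluorescent reporter of scleraxis, a transcription factor of the tendon lineage, and cells were picked by its fluorescence with a micromanipulator after collagenase digestion. Tnmd lies on the X chromosome, and the WT animals of the study included hemizygous males and homozygous or heterozygous females. The age of the mice behind these cells is not given in the sources used here. The methods give tendons as n = 2 without tying a cell to a tendon, and no label ties a cell to an animal, so each genotype was treated as 1 sample, no test between genotypes was made, and cells are described by their values.

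Mesenchymal stem and progenitor cells carry no marker that is theirs alone, and the genes on this panel are used in combination. Thy1 (CD90), Ly6a (Sca-1), Nt5e (CD73), Eng (CD105) and Cd44 belong to the classical panels for cultured mesenchymal cells of the mouse. Cd34, Pdgfra, Pdgfrb, Mcam (CD146) and the intermediate filament gene Nes (nestin, a protein inside the cell rather than on its surface) are used to tell fibroblast-like progenitors from progenitors around vessels. Several of them are not limited to progenitors: endothelial cells also carry Cd34, Eng, Mcam and Ly6a, and immune cells carry Cd44.

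Reads were counted from full-length amplified cDNA without molecular tags, so a count is a read and not a molecule. Total counts on genes ran from 892713 to 10333351 per Tnmd-/- cell and from 4516036 to 13613080 per WT cell. An annotation of the study, not GEO's labels, marks Tnmd-/- cells 9, 10 and 20 and WT cells 4, 5 and 10 as less degraded, and the remaining 6 cells as more degraded. Cells that were more degraded were also shallower, with at most 5991316 counts against at least 6742665. In Tnmd-/- cell 3, 51.8% of the reads were mitochondrial, against at most 7.30% elsewhere. Of 12 markers of tendon fibroblasts, Dcn, Comp and Col1a2 were counted in all 12 cells, and the list, carried by Dcn and Comp, summed to between 1684 and 176924 counts per 1000000 counts of the cell (CPM) with Kera at 0. Scx itself was counted in WT cells 1, 4 and 10 alone, and Tnmd, the targeted gene, in WT cell 14 alone, with 10178 counts. Tnmd had 7 counts in WT cell 2, 0 in the other 4 WT cells and at most 5 in a Tnmd-/- cell, so its level set 1 WT cell apart and could not check the labels of the rest. Of the lists for other cell types, no red cell marker had a read. The fat cell gene Fabp4 (922 CPM) and the skeletal muscle gene Myh1 (22 counts, 14.6 CPM) reached 10 counts only in Tnmd-/- cell 3. They were the only genes of 6 fat and 8 muscle markers to do so in any cell. Adipoq, Cidec, Lep, Pparg, Myh4, Ckm, Tnnt3, Mb, Myod1 and Pax7 had 0 counts in all cells. Of 6 glial markers, S100b was counted in cell 10 of both genotypes, at up to 173 CPM, Mbp reached 419 counts in Tnmd-/- cell 9, and Sox10 was at 0. Endothelial, immune, mural and cartilage markers are given below beside the members. A member was called counted in a cell when it had at least 10 reads there. Of the 120 values for 10 genes in 12 cells, 77 were 0, 16 lay between 1 and 4 counts, and 27 reached 10 counts. The lowest of those 27 were 14 and 15 counts, and the next was 162.

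Promoter sequences are shown for 4 members that stand for the patterns described below: Cd44, counted in every cell, Nes and Eng, counted together in the same cell, and Mcam, with no read in any cell. Each is the stretch of 250 bases before the start of the gene in RefSeq on GRCm38.p6, printed 5′ to 3′ on the strand of the gene. Gene coordinates given further below are those of GENCODE M21, whose starts can differ. Much of the Mcam stretch, with its marked sites, and the end of the Nes stretch lie inside the genes as given there. Capitals mark GGGCGG, the GC box motif, searched on both strands (so also as CCGCCC), and no marked sites overlap.
Cd44 (chr2:102901666-102901915, minus strand): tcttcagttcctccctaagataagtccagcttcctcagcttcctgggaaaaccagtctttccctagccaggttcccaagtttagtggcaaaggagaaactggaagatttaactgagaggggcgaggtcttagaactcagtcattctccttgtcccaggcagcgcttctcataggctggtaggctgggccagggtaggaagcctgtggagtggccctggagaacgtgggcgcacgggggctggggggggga
Nes (chr3:87970843-87971092, plus strand): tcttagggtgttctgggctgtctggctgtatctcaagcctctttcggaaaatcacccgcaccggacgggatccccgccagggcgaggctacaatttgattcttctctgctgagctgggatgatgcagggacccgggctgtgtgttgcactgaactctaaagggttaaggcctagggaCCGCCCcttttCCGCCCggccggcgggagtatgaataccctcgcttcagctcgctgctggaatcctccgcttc
Eng (chr2:32646345-32646594, plus strand): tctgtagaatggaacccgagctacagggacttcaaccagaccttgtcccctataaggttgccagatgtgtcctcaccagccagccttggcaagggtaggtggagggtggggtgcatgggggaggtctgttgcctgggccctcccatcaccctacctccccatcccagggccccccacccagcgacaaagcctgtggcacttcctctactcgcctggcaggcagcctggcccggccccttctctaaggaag
Mcam (chr9:44134408-44134657, plus strand): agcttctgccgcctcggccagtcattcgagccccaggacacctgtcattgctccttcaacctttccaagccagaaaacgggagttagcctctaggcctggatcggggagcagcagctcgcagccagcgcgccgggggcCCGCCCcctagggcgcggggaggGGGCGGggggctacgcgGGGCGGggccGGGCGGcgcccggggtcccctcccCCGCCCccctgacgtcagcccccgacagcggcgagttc
The motif was found at 5 sites in the Mcam stretch and at 2 in the Nes stretch, and these letters were not in the Cd44 and Eng stretches. Of 32851 promoters in the RefSeq table, 32.7% held it within the same length, against 3 of the 7 members with a promoter (Mcam, Nes and Nt5e). The Mcam stretch had 25 CpG dinucleotides, more than 89.3% of all promoters, and the Nes stretch had 15. The Cd44 and Eng stretches had 5 and 4, against a median of 6. The stretch of Cd34, which like Mcam had no read, had 6 and none of the motif. The Nt5e stretch, not printed, had 21 CpG dinucleotides and 4 sites of the motif, and that of Pdgfra had 4 and none. Promoters were given for 7 members, without Ly6a, Thy1 and Pdgfrb.

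Among the 10 members, Cd44 alone was counted in all 12 cells, Ly6a in 5, Pdgfra and Nt5e in 3 each, Pdgfrb in 2, and Nes and Eng in 1. Cd34, Thy1 and Mcam had 0 counts throughout. Of the 21991 protein-coding genes in the table, 55.7% had 0 counts in all cells, so 3 of 10 members without a read is a smaller share than that background. Of protein-coding genes, 38.5% reached 10 counts in any cell, against 7 of 10 members. Of the 8465 genes that did so, 2.43% were counted in all 12 cells and 36.7% in exactly 1 cell, against 1 and 2 of the 7 members.

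**Figure D1:**
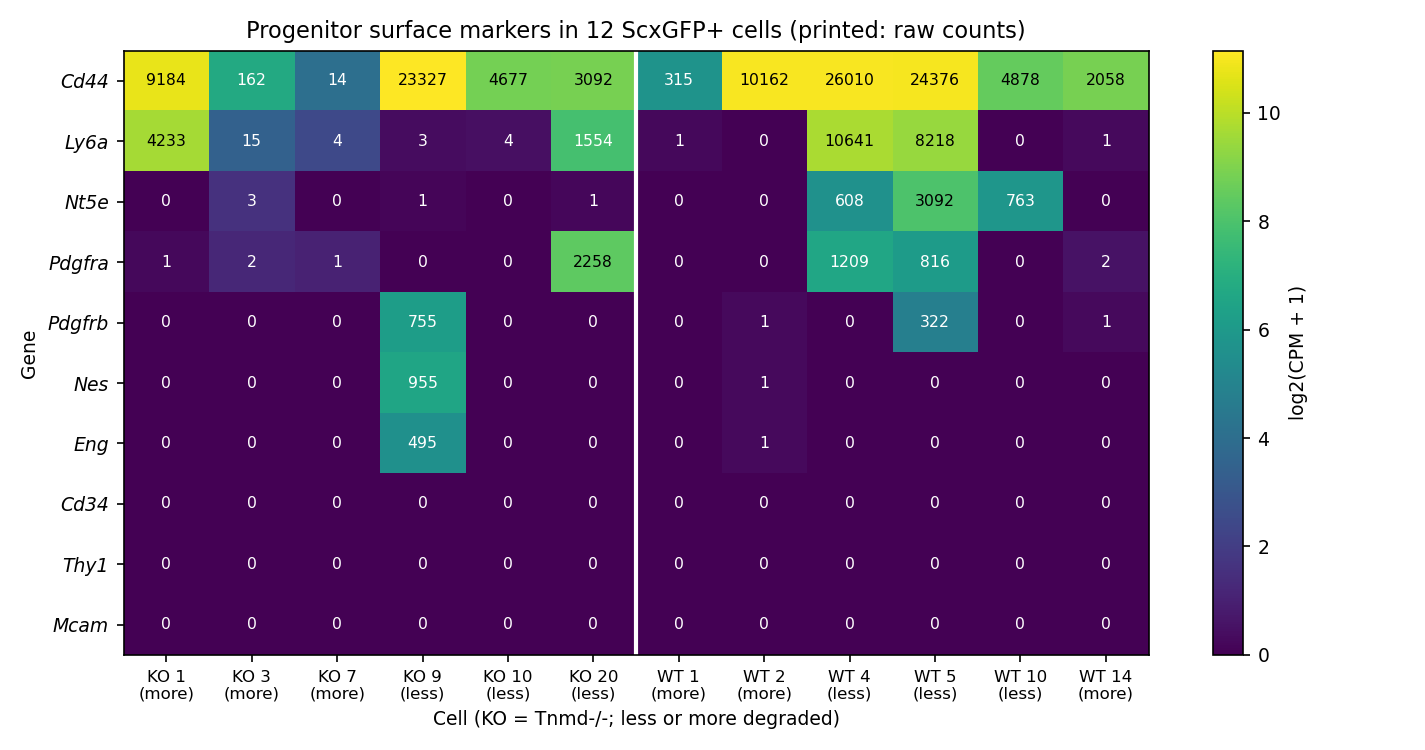
Level of the 10 members (rows) in the 12 cells (columns), with colour giving log2(CPM + 1) and the printed number the raw count. KO stands for Tnmd-/-, and less or more for the degradation level. Cd44 is coloured in every column, Nes and Eng reach 955 and 495 counts in Tnmd-/- cell 9 only, and the rows of Cd34, Thy1 and Mcam hold 0 throughout.

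Cd44, the receptor for the matrix polysaccharide hyaluronan, lies on chromosome 2 of GRCm38 from 102811141 to 102901665 on the minus strand, with 6776 exon bases. In the Tnmd-/- cells it ran from 15.7 to 2257 CPM with a median of 456 CPM, and in the WT cells from 52.6 to 2106 CPM with a median of 1242 CPM. The lowest values were in Tnmd-/- cell 7, WT cell 1 and Tnmd-/- cell 3, all more degraded, and the ranges of the genotypes overlapped over most of their length. Per length, as reads per exon base scaled to a common sum in each cell (TPM), the cells lay at 3 heights that both genotypes shared. In Tnmd-/- cells 1 and 9 and WT cells 2, 4 and 5 the level of Cd44 was between 713 and 864 TPM. In Tnmd-/- cells 10 and 20 and WT cells 10 and 14 it was between 130 and 181 TPM, and in Tnmd-/- cells 3 and 7 and WT cell 1 between 6.99 and 28.2 TPM. Cd44 alone gave between 44.8% (Tnmd-/- cell 20) and 99.97% (WT cell 2) of the reads of the panel in a cell.

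Summed over cells, Cd44 had 40456 counts (Poisson interval 40063 to 40852) for Tnmd-/- and 67799 (67290 to 68311) for WT, which is 1153 and 1269 CPM. The pooled log2 ratio compares these levels, Tnmd-/- over WT, and for Cd44 it was -0.14 (counting interval -0.16 to -0.12). The interval covers counting error only, and the cells of a genotype differed far more than this. The sign of the Cd44 ratio rested on few cells, since it was -0.87 without Tnmd-/- cell 9 and 0.19 without Tnmd-/- cell 10. It was also -0.35 within the less degraded and 0.57 within the more degraded cells. No direction between genotypes can therefore be given for Cd44.

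Ly6a encodes Sca-1, a small GPI-anchored surface protein, and lies on chromosome 15 from 74994877 to 74998031 on the minus strand, with 1205 exon bases. In the Tnmd-/- cells it had 4233 counts in cell 1, 1554 in cell 20 and 15 in cell 3, and 3 or 4 counts in the others. In the WT cells it had 10641 counts in cell 4, 8218 in cell 5 and at most 1 in each of the others. Cells high in the gene and cells nearly without its reads thus occurred in each genotype. Tnmd-/- cells 3 and 7 lay between them at 9.97 and 4.48 CPM, on 15 and 4 counts, while the remaining low cells had at most 0.388 CPM. Per length Ly6a stood above Cd44 in the 4 cells in which it was high. Its level was 1849 TPM in Tnmd-/- cell 1, 1823 TPM in WT cell 4, 1375 TPM in WT cell 5 and 509 TPM in Tnmd-/- cell 20, which was 1.90 to 2.83 times the Cd44 level of the same cell. In Tnmd-/- cell 3 it was 14.7 TPM, or 0.521 times Cd44. In Tnmd-/- cell 7 it was also above Cd44, at 11.2 against 6.99 TPM, but on 4 and 14 counts.

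**Figure D2:**
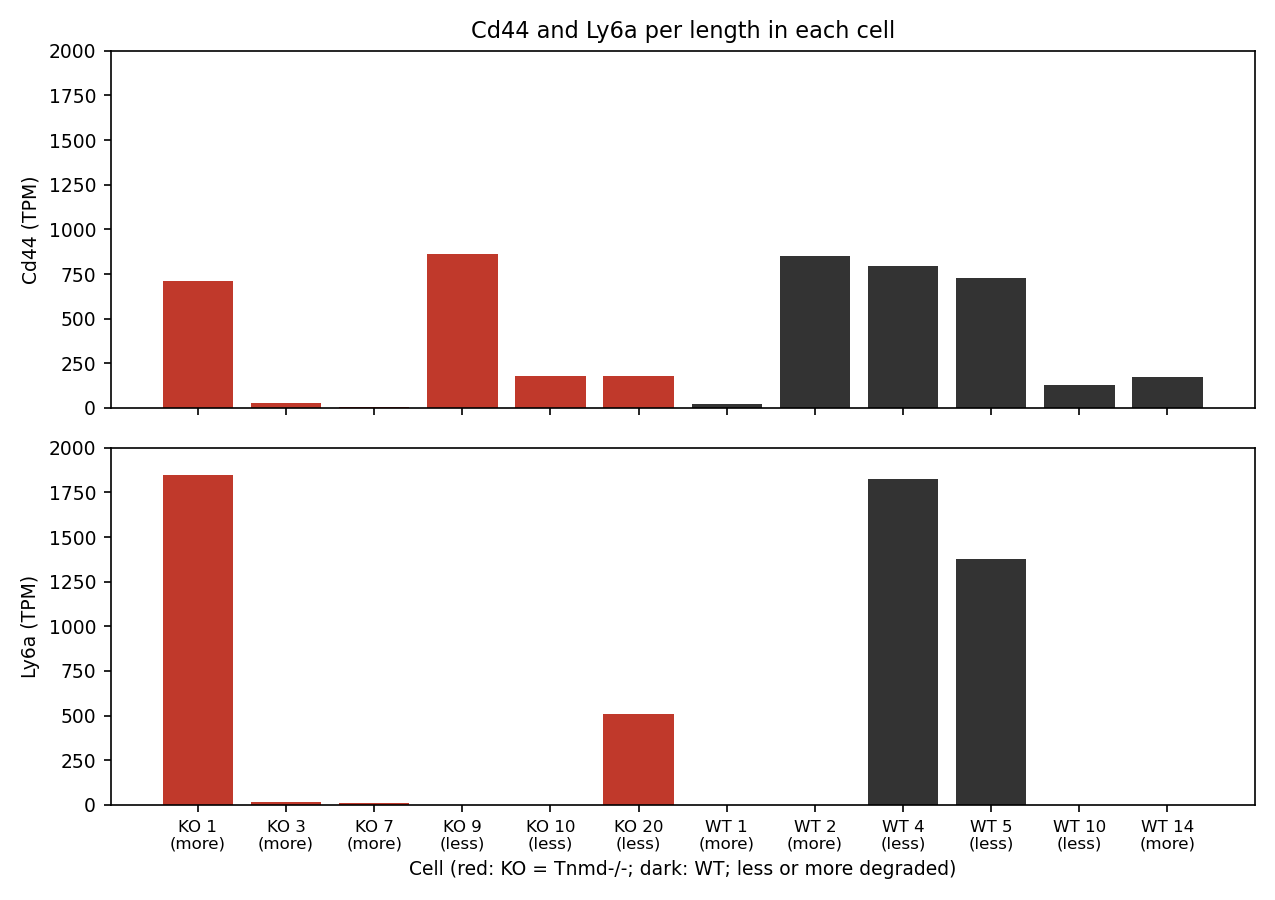
Level of Cd44 (top) and Ly6a (bottom) in TPM, 1 bar for each cell, red for Tnmd-/- (KO) and dark for WT. Cd44 is between 713 and 864 TPM in 5 cells from both genotypes, whereas Ly6a is at least 509 TPM in Tnmd-/- cells 1 and 20 and WT cells 4 and 5 and at most 14.7 TPM elsewhere.

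The Ly6a sums were 5813 counts (166 CPM) for Tnmd-/- and 18861 counts (353 CPM) for WT, a pooled log2 ratio of -1.09 (-1.13 to -1.05). Within the less degraded cells it was -3.12 (1561 against 18859 counts), but within the more degraded cells it was 12.05 (4252 against 2 counts), so the direction turned with the level. Tnmd-/- cell 1 gave 72.8% of the counts of its genotype. Without it the ratio was -2.73, and without WT cell 4 it was -0.28.

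Ly6a has close relatives in the same gene cluster, and reads that fit several of them were not counted. Of 9 other Ly6 genes read alongside, Ly6c1 was counted in 11 cells and Ly6c2 had at most 8 counts in a cell, while the others (Ly6e, Ly6d, Ly6h, Ly6i, Ly6g, Ly6k and Ly6g6c) had 0. Ly6c1 reached 2618 TPM in Tnmd-/- cell 20 and 2129 TPM in WT cell 4. WT cell 1, with 1 count of Ly6a, had 4872 counts of Ly6c1, and WT cell 10, with 0, had 5257. Ly6c1 was therefore also high in cells without Ly6a, and how reads were divided between the relatives was not tested.

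Tnmd-/- cell 1 was the only cell with a high Ly6a among the more degraded ones, and 1 endothelial and 1 immune marker were also counted in it. The endothelial gene Pecam1 had 160 counts (30.1 CPM) and the myeloid integrin gene Itgam 1110 counts (209 CPM) in this cell, against at most 3 counts of either in any other cell. Other defining markers, Cdh5, Tie1, Emcn and Egfl7 for endothelium and Ptprc, Adgre1, Csf1r and Lyz2 for immune cells, were at 0 in all cells. Of 11 endothelial markers 2 were counted in any cell, Pecam1 and Flt1. The highest list sum was in Tnmd-/- cell 10, from 1857 counts of Flt1, and Tnmd-/- cell 1 had 31.1 CPM. The sums ran from 0 to 180 CPM per Tnmd-/- cell and from 0 to 0.441 CPM per WT cell. Of 11 immune markers 1 was counted, at 0 to 209 CPM and 0 to 0.160 CPM. Whether these reads have to do with the Ly6a level of Tnmd-/- cell 1 was not tested.

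The receptors for platelet-derived growth factors divide the mesenchyme into PDGFRα-rich fibroblasts and PDGFRβ-rich perivascular cells, although many fibroblasts carry both. Pdgfra (chromosome 5, 75152292 to 75198215, plus strand) had 2258 counts in Tnmd-/- cell 20, 1209 in WT cell 4 and 816 in WT cell 5. In the remaining cells it had 2 counts or fewer. Its level was 335 CPM in Tnmd-/- cell 20, 96.9 CPM in WT cell 4 and 67.9 CPM in WT cell 5. All 3 cells are less degraded, and all 3 are also among the cells high in Ly6a. The antisense gene Gm42802 shares 6.50% of the exon bases of Pdgfra, and the strand of counting is not stated.

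The pooled log2 ratio of Pdgfra was 0.77 (0.68 to 0.85), from 2262 and 2027 counts. A lone cell set its direction, because 99.8% of the Tnmd-/- counts lay in cell 20 and the ratio without this cell was -8.07. Leaving out WT cell 4 gave 1.69. Within the less degraded cells the ratio was 0.63, and the more degraded cells held 4 and 2 counts.

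Pdgfrb (chromosome 18, 61045150 to 61085061, plus strand) had 755 counts in Tnmd-/- cell 9 and 322 in WT cell 5. The other 10 cells had at most 1 count. That is 73.1 and 26.8 CPM, and no other cell exceeded 0.221 CPM. The pooled log2 ratio was 1.83 (1.64 to 2.02), and it set 1 cell against 1 cell. Without WT cell 5 it was 8.80, and without Tnmd-/- cell 9, which held all Tnmd-/- counts, it was at most -5.64 against a floor of 3 counts. WT cell 5 thus held reads of both receptors, and Tnmd-/- cell 9 held those of Pdgfrb with no count of Pdgfra.

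Nes and Eng followed Pdgfrb in Tnmd-/- cell 9. Nes (chromosome 3, 87971078 to 87980451, plus strand) had 955 counts there, Eng (chromosome 2, 32646595 to 32682669, plus strand), which encodes the TGF-beta co-receptor endoglin, had 495, and WT cell 2 had 1 count of each. No other cell had a read of either gene. In Tnmd-/- cell 9 their levels were 37.3 TPM for Nes, 30.7 TPM for Eng and 34.6 TPM for Pdgfrb, 23.1 to 28.2 times below Cd44 at 864 TPM. The stretches printed above for Nes and Eng belong to these co-counted genes, and they differed in the GC box motif.

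The pooled log2 ratios of Nes and Eng were 10.51 (8.02 to 15.81) and 9.56 (7.07 to 14.86), each from a lone Tnmd-/- cell against 1 count. Without Tnmd-/- cell 9 neither gene had more than 1 count on either side, and no ratio was formed. Of protein-coding genes counted in any cell, 23.3% were counted in Tnmd-/- cells alone, against 2 of 7 members, Nes and Eng. The share for WT cells alone was 24.2%, against 1 of 7, Nt5e.

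Endothelial and mural markers were read in the cell with Nes, Eng and Pdgfrb. None of the 11 endothelial markers had a count in Tnmd-/- cell 9. Of 10 mural markers, Cspg4, which encodes the proteoglycan NG2 and is also made by cartilage cells, had 1223 counts (118 CPM) in this cell. Rgs5, Kcnj8, Abcc9, Acta2, Myh11, Tagln, Des and Higd1b were at 0 in all cells. Cspg4 was counted in 6 cells in all, with 7703 counts in WT cell 5, the other cell with Pdgfrb, 996 in Tnmd-/- cell 10 and 552 in WT cell 4. The mural list summed to between 0 and 118 CPM per Tnmd-/- cell and between 0 and 641 CPM per WT cell. Tnmd-/- cell 9 also held 8768 counts of the cartilage proteoglycan gene Acan (849 CPM) and 4980 of Sox9 (482 CPM). These were the 2 of 8 cartilage markers counted in this cell, and Col2a1, Col9a1 and Matn3 were at 0 in all cells. The cartilage list summed to 1330 CPM in Tnmd-/- cell 9, close to the 1271 CPM of Tnmd-/- cell 10, which had no read of Nes, Eng or Pdgfrb.

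Nt5e encodes CD73, the surface enzyme that releases adenosine from AMP (chromosome 9, 88327197 to 88372092, plus strand). It had 3092 counts in WT cell 5, 763 in WT cell 10 and 608 in WT cell 4, or 257, 56.0 and 48.7 CPM. The other WT cells, all more degraded, had 0 counts. In the Tnmd-/- cells it had 3 counts in cell 3 and 1 each in cells 9 and 20, and all 6 stayed below 2.00 CPM. No less degraded Tnmd-/- cell therefore reached the level of the less degraded WT cells, whereas the more degraded cells of the genotypes overlapped near 0. How many of all genes were divided in this way was not computed.

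The pooled log2 ratio of Nt5e was -9.19 (-10.82 to -7.97), from 5 against 4463 counts. Within the less degraded cells it was -10.65 (-13.69 to -8.79), from 2 against 4463, and in the more degraded cells, with 3 counts against 0, no ratio was formed. With each cell left out in turn it stayed between -10.45, without Tnmd-/- cell 3, and -7.86, without WT cell 5. Nt5e was the one member counted in 3 cells of a genotype and in none of the other. The share of all genes with that pattern was not computed, so this sets Nt5e apart among the members only. Of protein-coding genes counted in any cell, 24.2% were counted in WT cells alone, in any number of them. Of genes with at least 20 counts, 34.9% had a log2 ratio of at most -1 with 1 CPM added. There is no replicate check on the Nt5e ratio, because no label ties these cells to an animal.

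Cd34 (chromosome 1, 194938819 to 194961279, plus strand), a sialomucin of blood progenitors, endothelium and many connective tissue fibroblasts, had no read in any cell. The same held for Thy1 (chromosome 9, 44043384 to 44048579, plus strand), a GPI-anchored protein of fibroblasts, T cells and neurons. It held too for Mcam (chromosome 9, 44134469 to 44142727, plus strand), an adhesion molecule of pericytes and endothelium. A count of 0 allows up to 0.0855 CPM over the Tnmd-/- sum of 35088506 counts and 0.0561 CPM over the WT sum of 53439236 counts, with a floor of 3 counts. In a single cell it allows from 0.220 CPM in WT cell 10 to 3.36 CPM in Tnmd-/- cell 7. These limits cover counting error only and apply to reads after amplification. The genes were thus not detected, which does not show that they were absent from the cells, and the reason was not tested.

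The 12 cells fell into 7 combinations of counted members. In 5 cells (Tnmd-/- cells 7 and 10, WT cells 1, 2 and 14) Cd44 was counted without any other member. Tnmd-/- cells 1 and 3 added Ly6a, and Tnmd-/- cell 20 added Ly6a and Pdgfra. WT cell 10 combined Cd44 with Nt5e. WT cell 4 held Cd44, Ly6a, Pdgfra and Nt5e, and WT cell 5 these with Pdgfrb. Tnmd-/- cell 9 held Cd44, Pdgfrb, Nes and Eng.

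Ly6a and Pdgfra were counted together in 3 cells, which were all the cells with Pdgfra and 3 of the 5 with Ly6a. Ly6a and Nt5e met in 2 cells, both WT, and so did Pdgfra and Nt5e. Of the 21 pairs among the 7 counted members, 6 never met in a cell, and these were Nes and Eng each with Ly6a, Pdgfra and Nt5e. No cell had the classical set of Thy1, Ly6a, Nt5e, Eng and Cd44, since Thy1 was at 0 and Eng never met Ly6a or Nt5e. The points share few cells: every pair with Nes or Eng rests on Tnmd-/- cell 9, and the pairs of Pdgfra with Nt5e rest on WT cells 4 and 5.

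**Figure D3:**
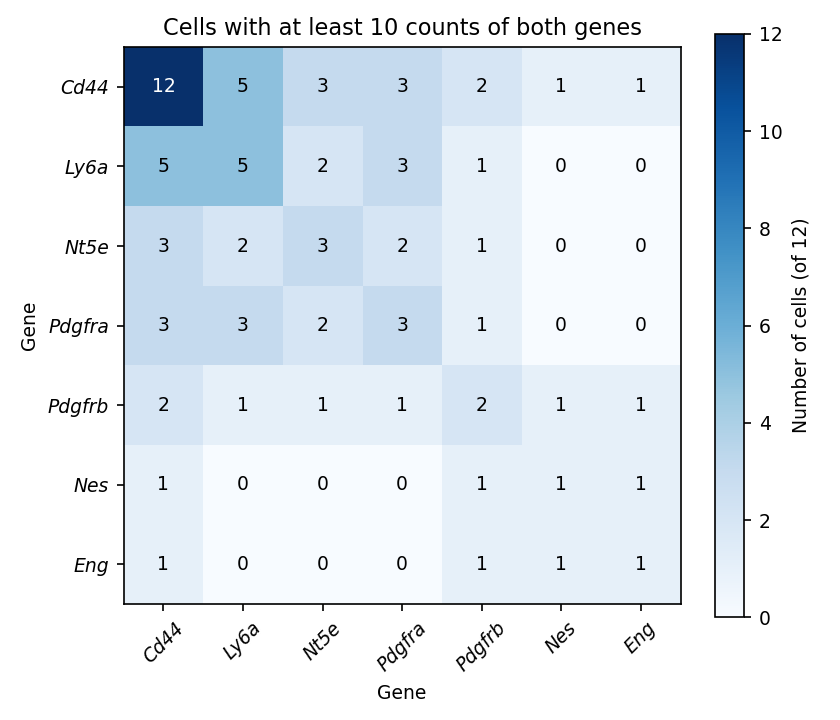
Number of cells, of 12, with at least 10 counts of both genes, for the 7 members counted in any cell. The diagonal gives the cells counted for each gene. All 3 cells with Pdgfra also hold Ly6a, and Nes and Eng share no cell with Ly6a, Pdgfra or Nt5e.

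Counted members per cell were 1 to 4 in the Tnmd-/- cells (median 2) and 1 to 5 in the WT cells (median 1.5). Over all values, 13 of 60 in the Tnmd-/- cells (21.7%, exact binomial interval 12.1% to 34.2%) and 14 of 60 in the WT cells (23.3%, 13.4% to 36.0%) reached 10 counts. The intervals take the values as independent, which genes of the same cell are not. The shares of all protein-coding genes were 10.3% and 11.3%. Less degraded cells had 19 of 60 such values and more degraded cells 8, where all protein-coding genes stood at 13.3% and 8.26%. Without Cd44, these were 13 and 2 values, and both of the latter were Ly6a in Tnmd-/- cells 1 and 3. In 1 random thinning of every cell to the 892713 counts of the shallowest, each of the 27 values still reached 10 counts. The lowest was 13, for Ly6a in Tnmd-/- cell 3, where 8.90 counts are expected on average, so this value depends on the draw. Thinning matched the total counts only, and the part of depth in the split of 19 and 8 was not tested further.

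**Figure D4:**
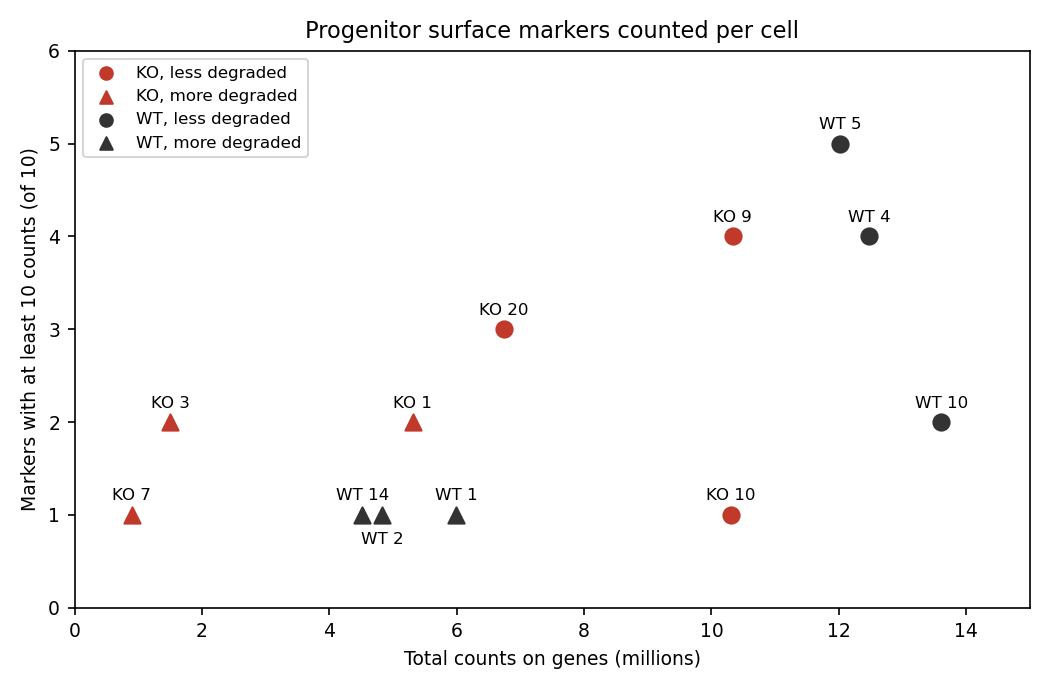
Number of members with at least 10 counts (of 10) against the total counts on genes, in units of 1000000, 1 point for each cell, red for Tnmd-/- (KO) and dark for WT, circles for less and triangles for more degraded cells. More degraded cells hold 1 or 2 members, and less degraded cells between 1 (Tnmd-/- cell 10) and 5 (WT cell 5).

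For the comparison between genotypes, 7 members passed the minimum of 20 counts. After adding 1 CPM to each sum, the ratio was positive for 4 of them and negative for 3. Their median log2 ratio was 0.75, against 0.06 over all 9768 genes with at least 20 counts. A ratio of at least 1 was seen for 3 of 7 members (Pdgfrb, Nes and Eng), where 35.5% of all genes had one. A ratio of at most -1 was seen for 2 of 7 (Ly6a and Nt5e), where 34.9% of all genes had one. These shares lie near the background, and without Tnmd-/- cell 9 the median over the 5 members left was -0.87. The panel as a whole therefore gave no direction between the genotypes.

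Genes that work with the members were read from lists. Among 20 other genes used as progenitor markers, 9 were counted in any cell, with 21 such values for Tnmd-/- and 22 for WT. Cd9, a tetraspanin, was counted in all 12 cells at 81.7 to 6585 CPM, and the integrin gene Itgb1 in 11 cells, with 9 counts in WT cell 14. Prrx1, a transcription factor of limb mesenchyme, was counted in 7 cells, with the highest level of 5407 CPM in Tnmd-/- cell 3, the cell rich in mitochondrial reads. Alcam, Ngfr, Cd248, Prom1, Dpp4, Pi16, Gli1, Axin2, Sox2 and Pou5f1 had 0 counts. Of the 9 with at least 20 counts, 2 had a log2 ratio of at least 1 and 4 of at most -1, where all genes stood at 35.5% and 34.9%.

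Of 12 genes for PDGF ligands and partners of the receptors, 8 were counted in any cell. The ligand gene Pdgfc was counted in WT cell 5 alone, with 3394 counts, a cell that also held both receptors. Pdgfb and Pdgfd, whose products act through PDGFRβ, were at 0 in every cell, as was Src. The log2 ratio was at least 1 for 4 of these 8 genes and at most -1 for 3 (35.5% and 34.9% of all genes).

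Of 11 genes of extracellular adenosine, only 2 were counted in any cell, the nucleoside transporter gene Slc29a1 in 11 cells and Enpp1 in 2. The enzyme genes Entpd1 and Entpd2 and the receptor genes Adora1, Adora2a, Adora2b and Adora3 had no read. Enpp1 had 4035 counts (296 CPM) in WT cell 10, where Nt5e was counted, and 86 in Tnmd-/- cell 20, where Nt5e was not. Slc29a1 was at 1970 CPM in WT cell 4 and 1720 CPM in WT cell 5, both with Nt5e, but at 617 CPM in WT cell 10, the remaining cell with Nt5e, below WT cell 14 (646 CPM) and Tnmd-/- cell 20 (755 CPM). It was at 429 CPM over all Tnmd-/- against 1102 CPM over all WT cells.

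Of 15 genes for hyaluronan turnover and other partners of CD44, 13 were counted in any cell. Spp1, which encodes the CD44 ligand osteopontin, was counted in all 12 cells from 27.9 CPM in Tnmd-/- cell 1 to 71904 CPM in WT cell 10. Msn, which links CD44 to actin, was counted in 11 cells. Of the 13 genes, 3 had a log2 ratio of at least 1 and 7 of at most -1, beside 35.5% and 34.9% of all genes, and with no test nothing particular to the list can be read from this. Of 13 genes around endoglin, 10 were counted, led by the receptor gene Bmpr2, whereas Acvrl1 and Gdf2, the type I receptor and the ligand that endoglin serves in endothelium, were at 0. Here 1 of the 10 had a ratio of at least 1 and 5 had one of at most -1, beside the same 35.5% and 34.9%. Among 4 intermediate filament genes Vim, the partner of nestin, had 294 counts in the Nes cell and 27266 in WT cell 4, and Des had none.

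For the members counted in at least 4 cells, the genes with the most similar levels over the 12 cells were found by rank among 3190 genes counted in at least 4 cells. Closest to Ly6a were Atp6v1b2 (Spearman 0.96), Cab39l (0.92) and Tecr (0.92), each counted in 4 cells. Closest to Cd44 were Tnks1bp1 (0.86), Lyar (0.85) and Arf4 (0.85). Between Ly6a and Cd44 the value was 0.19, and between Ly6a and Ly6c1 0.49. With 12 cells of unequal depth and many values at 0, these figures describe the cells and no test was made.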

How the data were processed

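Raw counts per gene and cell were used as deposited by the authors, and they hold whole numbers without normalization. According to the methods, reads were trimmed with BBDuk, reads not exclusive to mouse were removed with BioBloom Tools, the rest were aligned to GRCm38 (Ensembl 96) with STAR 2.5.1b, and uniquely mapping exonic reads were counted with featureCounts of Subread 2.0.0. The strand setting is not given in the sources used here. Exon lengths come from the file and were the same in GENCODE M21 for all 10 members.

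Columns were matched to cells by the sample labels. CPM are counts per 1000000 counts on genes, for single cells and for genotype sums, and TPM were also scaled by exon length. Intervals are exact Poisson and exact binomial (Clopper-Pearson) at 95%. A floor of 3 counts stood for a 0, and genes with at most 3 counts on both sides have no ratio. Ratios over many genes had 1 CPM added and needed 20 counts. The degradation level served only as a technical level.

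The members and lists were chosen with earlier results of these data known. All members are named, with at most 4 genes of most counts from each list, genes at 0, the 3 genes most like a member, and Scx and Tnmd as reporter and targeted gene. No test was made, since each genotype is 1 sample. Alternatives were TMM factors of edgeR 4.0.16, DESeq2 1.42.0 size factors, equal cell weights, other totals, thresholds and filters, each degradation level alone, thinning, and each cell left out. R 4.3.3 and Python 3.11.15 (scipy 1.17.1, pandas 2.3.3, numpy 2.4.6) were used.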

Additional observations from a re-analysis of the deposited data

Results flagged for a closer look

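In 8 of the 14 sets of 6 cells (7 members, 2 genotypes) the highest cell stood apart from the rest on the log2(CPM + 1) scale, the gap to its neighbour taking more than 0.625 of the whole range. Chance alone marks at most about 5% of sets of normally distributed values, but genes with nearly all values at 0 are marked by construction. In the Tnmd-/- cells the share of the range was 0.855 for Pdgfra in cell 20 (335 CPM) and 1 for Pdgfrb, Nes and Eng in cell 9 (73.1, 92.4 and 47.9 CPM). It was 0.874 for Nt5e in cell 3, on 3 counts (1.99 CPM). In the WT cells it was 0.940 for Pdgfrb in cell 5 (26.8 CPM), and 1 for Nes and Eng in cell 2, on 1 count each (0.207 CPM). Those for Nt5e in Tnmd-/- cell 3 and for Nes and Eng in WT cell 2 rest on 3 counts or fewer.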

How the results depend on the processing

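No paired analysis was possible because no test was made and the genotypes share only the cell numbers 1 and 10, which name picked cells. Calling a gene counted at 1 read moved the median of counted members per cell from 2 to 4 and the values in the Tnmd-/- cells from 13 to 22. The other thresholds and thinning kept the counts within 1.5 times. With each cell left out the values ran from 9 to 12 in the Tnmd-/- cells, and from 9 (without WT cell 5) to 13 in the WT cells (14 with all of them). The median log2 ratio of the members, 0.75 with 1 CPM added, was 1.00 with equal cell weights, 0.56 with TMM factors, 0.62 in the less degraded cells, 4.75 in the more degraded cells (2 members left) and 0.85 without Tnmd-/- cells 3 and 7, the shallowest, an alternative chosen after seeing the data. With each cell left out it ran from -0.87 to 1.34. Its value over all genes moved from 0.06 to -0.07 with TMM factors. On the same scale Ly6a turned to 8.93 in the more degraded cells and Pdgfrb to -2.82 without Tnmd-/- cell 9, against up to 4.42 without WT cell 5. The causes were not tested. Nes, Eng and Nt5e kept their sign wherever a ratio was formed, but their size depended on the added level: it was 4.79, 3.89 and -6.21 with 1 CPM and 2.68, 1.93 and -4.11 with 5 CPM, against 10.51, 9.56 and -9.19 with none, and Nes and Eng could not be computed without Tnmd-/- cell 9 and in the more degraded cells.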

Other observations

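Among the 16 member values between 1 and 4 counts, WT cell 2 held 1 count each of Pdgfrb, Nes and Eng, the 3 members counted in Tnmd-/- cell 9 beside Cd44. The same pair of cells was then read over a wider set of genes, which includes Nes and Eng. Of the 306 genes with at least 100 counts in Tnmd-/- cell 9 and under 10 in every other cell, 40.8% had 1 to 9 counts in WT cell 2, 39.2% in WT cell 14 and 32.0% in WT cell 5, against 1.63% to 5.23% in the other 8 cells. Over all 132 ordered pairs of cells this share ran from 0% to 54.3% with a median of 3.04%, and it exceeded 20% in 25 pairs. Of the 16 low member values, 12 lay in a cell that was such a partner of at least 1 cell counted for the same gene. Where a member was counted in several cells, the highest share was taken. The 12 of 16 therefore has no matching share over all genes and cannot be set against the 25 of 132 pairs. Among the 12 were the 3 counts of Nt5e in Tnmd-/- cell 3, where the share of genes of WT cell 5 was 45.2%. These shares were looked up after the low counts had been seen, and no cause was tested.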
